A study of Mus musculus with 6 samples.

Results

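The serine/threonine phosphatase subunit genes described here are the protein-coding genes whose symbol begins with Ppp1 to Ppp6, other than the Ppp1r3 and Ppp1r15 genes and Ppp3ca. There are 65 of them among 53700 gene rows: 34 belong to protein phosphatase 1 (PP1), 16 to protein phosphatase 2A (PP2A) and 15 to the smaller phosphatases PP3 (calcineurin), PP4, PP5 and PP6. They were chosen by name and not by how they changed. PolyA RNA was sequenced from mouse oocytes at the germinal vesicle (GV) stage, the arrest in meiotic prophase that precedes maturation. The KO group is 3 libraries of Zar1 knockout (Zar -/-) oocytes and the WT group 3 libraries of wild-type (Zar +/+) oocytes, all on the C57BL/6N strain background, each library from a pool of 10 oocytes. ZAR1 is an RNA-binding protein of the oocyte that has been tied to the storage of maternal mRNA. The design asks which levels of polyA RNA differ in oocytes without it. The length of poly(A) tails was not measured, so tail length and mRNA amount cannot be told apart in these counts. The sources used here do not give the age of the animals, the part of Zar1 that was deleted, or whether different pools came from different animals, so p-values measure the spread between pools.

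These enzymes remove phosphate from serine and threonine and thereby oppose kinases such as CDK1. PP1 works as a catalytic subunit bound to one of many regulatory proteins that place it at a substrate or block it. PP2A is a complex of a catalytic subunit, a scaffold and a regulatory B subunit of the B55, B56 or B72 family, and the B subunit sets the substrate. PP4 and PP6 use regulatory subunits in a similar way, calcineurin is activated by calcium, and PP5 carries its own regulatory domain. In oocytes PP1 and PP2A are known for restraining the release from prophase arrest and for guarding sister chromatid cohesion at the centromeres.

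Of the 65 genes, 54 had enough counts to be tested, 24 of PP1, 15 of PP2A and 15 of PP3 to PP6. The 11 others were Ppp2r2c and 10 PP1 regulators, Ppp1r1a, Ppp1r1b, Ppp1r1c, Ppp1r14a, Ppp1r16a, Ppp1r16b, Ppp1r17, Ppp1r18, Ppp1r32 and Ppp1r36. Ppp1r14a and Ppp1r36 had 0 counts in all 6 libraries. Ppp1r16b, a membrane-bound PP1 regulator, had the most counts of the untested genes, 11 over the KO libraries and 39 over the WT libraries. The genes that were left out were therefore close to silent in both groups.

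Gene counts summed to 35066851, 37946223 and 37253021 in KO replicates 1, 2 and 3 and to 39148833, 35358795 and 32126555 in WT replicates 1, 2 and 3. Levels below are CPM, that is, counts relative to a library's TMM-scaled total, given as mean ± SD (n = 3 libraries in each group), and are relative to the rest of a library. Fold changes are log2 of KO over WT with their standard error from edgeR's quasi-likelihood test. A gene is called at a Benjamini-Hochberg adjusted p of 0.05 over all 16473 genes tested. Zar1 had 69, 96 and 226 counts in the KO libraries and 15245, 13612 and 12810 in the WT libraries (log2 fold change -6.75 ± 0.36, adjusted p = 1.15e-05). The first principal component separated the genotypes, and on the second KO replicate 3 (score -49.6) stood apart from KO replicate 2 (34.9). Summed oocyte markers were between 20260 and 21281 CPM in KO and between 18221 and 19815 CPM in WT. The 12 cumulus and granulosa cell markers summed to between 119.75 and 130.21 CPM in KO and between 103.42 and 115.25 CPM in WT. Cyp19a1 and Nr5a2 held most of that sum, with 42.9 and 77.9 CPM in KO and 47.8 and 51.8 CPM in WT. Nr5a2 rose (0.59 ± 0.09, adjusted p = 0.00144) and Cyp19a1 was not called (0.447). Hsd17b1 averaged 2.25 CPM in KO and 2.54 CPM in WT, while Foxl2 and Amh averaged at or below 0.129 CPM in both groups. Fshr had 0, 47 and 0 counts in KO replicates 1, 2 and 3 and 8, 1 and 4 in WT replicates 1, 2 and 3. Kitl of the same list was lower, at 0.797 CPM in KO and 4.02 CPM in WT (-2.33 ± 0.39, adjusted p = 0.00222). Markers of stroma summed to at most 1.69 CPM and those of blood to at most 2.36 CPM in any library, with Hba-a1 and Hbb-bs at 0 throughout. The part of these markers in the results below was not tested. In pools of whole oocytes less RNA per cell and fewer contributing cells cannot be told apart.

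In KO oocytes 15 of the 54 tested genes rose and 8 fell, and the other 31 were not called. Over all genes tested 14.9% rose and 18.5% fell, 33.4% in either direction, and over the 12940 protein-coding genes tested 17.0% rose and 20.4% fell, 37.3% in either direction. The median log2 fold change was 0.17 over the phosphatase genes and 0.00745 over all tested genes. PP1 had 8 genes higher and 4 lower (median 0.35) and PP2A 5 higher and 1 lower (median 0.29). PP3 to PP6 together had 2 higher and 3 lower (median -0.08). The fold changes were small, since 1 gene was called and over 2-fold higher (Ppp4r1) and 1 called and over 2-fold lower (Ppp2r1b), against 4.15% and 8.76% of all tested genes and 4.16% and 8.64% of the protein-coding ones. The KO and WT libraries did not overlap in 30 of the 54 genes (55.6%), against 47.8% of all tested genes and 50.8% of the protein-coding ones.

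With upper-quartile scaling the split was 19 higher and 5 lower, as Ppp1cb (adjusted p = 0.0733), Ppp1r12a (0.0668) and Ppp6r3 (0.0511) lost their call. With library sizes alone Ppp1r11 (0.0697), Ppp1r14b (0.0623), Ppp2r5a (0.0560) and Ppp4c (0.0555) lost theirs. Without a filter on low counts these 4, Ppp1cb, Ppp1r12a and Ppp2r2b were not called (adjusted p between 0.0506 and 0.115). Leaving out some libraries lowered the counts: 8, 5 and 7 genes were higher without WT replicate 1, WT replicate 2 and WT replicate 3. The number lower was 5, 5, 5 and 4 without KO replicate 1, KO replicate 2, WT replicate 2 and WT replicate 3. PP1 then had 4, 3 and 4 genes higher without WT replicates 1, 2 and 3, and 2 lower without KO replicate 1, KO replicate 2, WT replicate 2 or WT replicate 3. PP2A had 2, 3, 1 and 2 higher without KO replicate 1, WT replicate 1, WT replicate 2 and WT replicate 3. PP3 to PP6 had 1 higher without any 1 library other than KO replicate 2, and 1 lower without WT replicate 3. After a correction for the GC content and length of transcripts the PP1 median was 0.05, with 4 genes higher and 1 lower, while the PP2A median was 0.35. A group of 6 genes kept their call in every one of 19 alternatives, the stricter thresholds aside: Ppp4r1, Ppp1r13b, Ppp2r3c and Ppp1r21, which were higher, and Ppp2r1b and Ppp1cc, which were lower.

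**Figure D1:**
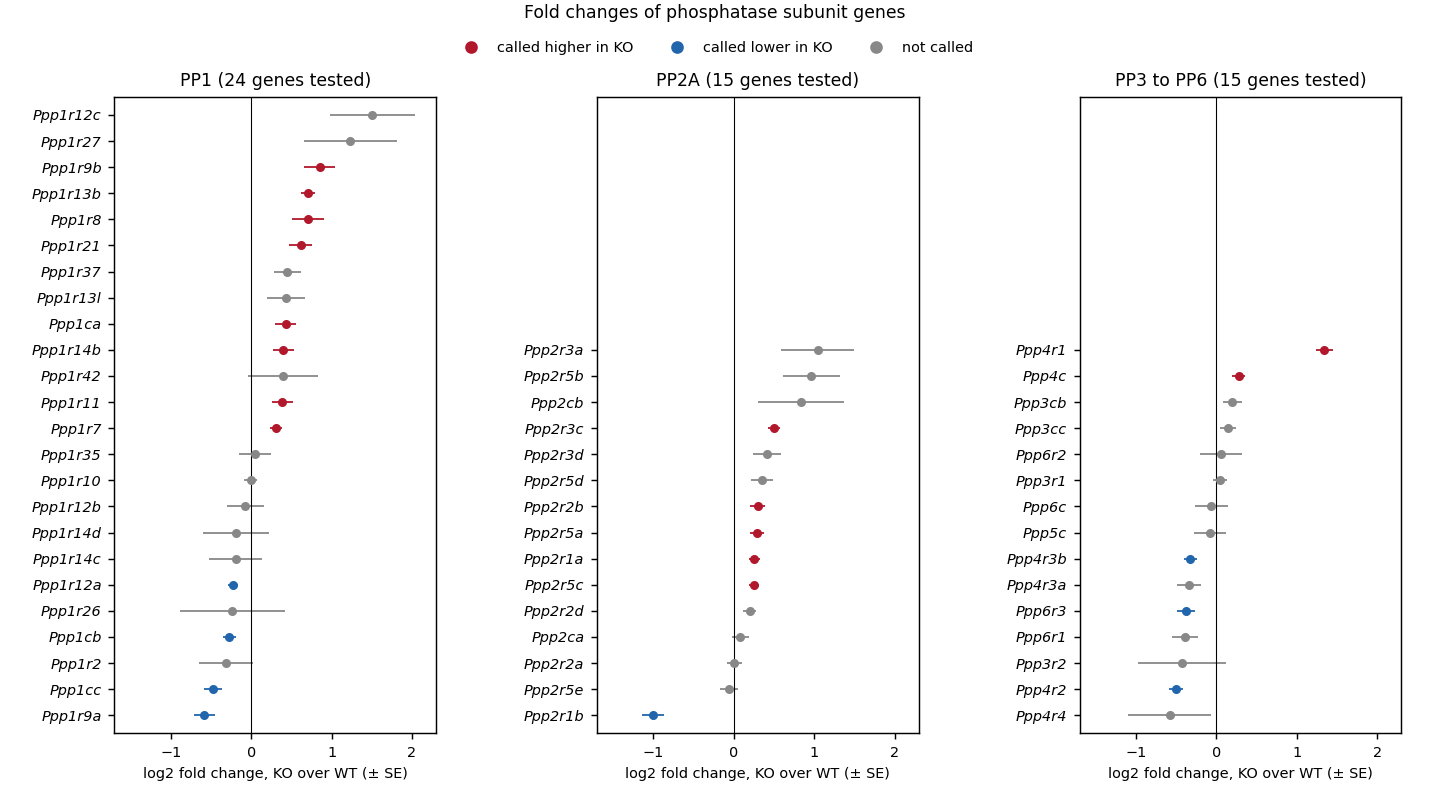
Log2 fold change of KO over WT with its standard error for each of the 54 tested genes, by phosphatase and sorted by fold change; red points were called higher, blue points lower and grey points not called. PP2A has 1 gene called lower, Ppp2r1b, and Ppp4r1 stands farthest right among the called genes.

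The 3' end of an oocyte mRNA carries the signals that decide when it is polyadenylated and translated, so short stretches of it are shown here for called genes of the main classes. The cytoplasmic polyadenylation element (CPE) is bound by CPEB1, and the hexamer AATAAA or ATTAAA is the polyadenylation signal. For each gene the protein-coding transcript with the longest annotated 3' UTR was taken (GENCODE M21, build GRCm38). The last 100 bases of that 3' UTR were searched on the sense strand for TTTTAT or TTTTAAT as the CPE. It was found in 6 of 15 genes that rose (40.0%), 1 of 8 that fell (12.5%) and 8 of 31 not called (25.8%). Among all tested protein-coding genes it was found in 18.8% of those that rose, 23.8% of those that fell and 19.3% in all. A single gene makes up the 12.5% of those that fell, and the shares were not tested against each other. The sites lie in 3 PP2A regulators, the PP2A scaffold Ppp2r1a and the PP1 inhibitor Ppp1r14b, all higher in KO, and in the PP4 regulator Ppp4r3b, lower in KO; that of Ppp2r2b, also higher, is not shown. Capitals mark the CPE and any hexamer, which overlap in Ppp4r3b:
Ppp2r1a: tttaTTTTATtcctttccctactgtaca
Ppp2r3c: tgtgTTTTATaaaagttcgtcttaaaat
Ppp2r5a: actgTTTTATaatgagagatctttactg
Ppp2r5c: gctcTTTTATctaattttaaagaactct
Ppp1r14b: ggttTTTTATtgttATTAAActgacggg
Ppp4r3b: ctatTTTTAATAAAaagttatgtgaaac
The CPE ends 53 bases before the annotated end of the 3' UTR in Ppp2r1a, 19 in Ppp2r3c, 64 in Ppp2r5a, 65 in Ppp2r5c, 22 in Ppp1r14b and 20 in Ppp4r3b. Which 3' end the oocyte uses was not measured. A hexamer lay in the same window in 87.0% of the tested phosphatase genes and in 81.3% of tested protein-coding genes.

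The 3 catalytic subunits of PP1 moved in different directions. Ppp1ca, which encodes PP1 alpha (chromosome 19), had 130.4, 123 and 175 CPM in KO replicates 1, 2 and 3, against 98.9, 107 and 111 CPM in WT replicates 1, 2 and 3. All KO libraries lay above all WT libraries, with KO replicate 3 the highest. It rose by a log2 fold change of 0.43 ± 0.13 (adjusted p = 0.0313), which was 0.26 without KO replicate 3 (adjusted p = 0.0342). Ppp1cb, PP1 beta (chromosome 5), had 50.8, 48.4 and 50.3 CPM in the KO libraries, against 56.3, 61.4 and 62.6 CPM in the WT libraries. The groups were close but did not overlap, and the gene fell (log2 fold change -0.27 ± 0.08, adjusted p = 0.0359). Ppp1cc, PP1 gamma (chromosome 5), the form needed for sperm development, had 34.2, 29.0 and 36.5 CPM in KO and 45.0, 45.7 and 47.8 CPM in WT. Every KO library was below every WT library, and Ppp1cc fell by 0.47 on the log2 scale (SE 0.11, adjusted p = 0.00955).

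The Ppp1ca call was lost without WT replicate 1 (adjusted p = 0.115), WT replicate 2 (0.0847) or WT replicate 3 (0.0693), and after the GC and length correction (log2 fold change 0.24, adjusted p = 0.207). The Ppp1cb call was lost without KO replicate 1 (0.0802), KO replicate 2 (0.0944), WT replicate 2 (0.109) or WT replicate 3 (0.136), and the correction turned its fold change to 0.03 (0.837). Ppp1cc was called without any single library and after the correction (-0.43, adjusted p = 0.0163). Ppp1ccb, a transcribed pseudogene that resembles Ppp1cc, averaged 8.79 ± 2.43 CPM in KO and 13.1 ± 1.09 CPM in WT (-0.58 ± 0.21, adjusted p = 0.0666), so reads of the pair may have been split between them. Ppp1ca shares 225 exonic bases with Rad9a on the other strand, which had 118 counts over all libraries.

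Per length, the PP1 catalytic mRNA of GV oocytes was mostly Ppp1ca. Per kilobase of transcript it made up 79.9%, 80.9% and 83.7% of the summed level of the 3 genes in KO replicates 1, 2 and 3, against 70.9%, 71.8% and 71.8% in WT replicates 1, 2 and 3. The share of Ppp1cc was 11.3 ± 1.03% in KO and 18.5 ± 0.545% in WT, and that of Ppp1cb 7.17 ± 1.05% in KO and 10.0 ± 0.110% in WT. None of the 3 shares overlapped between the groups (exact two-sided permutation test, p = 0.1 for each, the smallest that 3 against 3 libraries can give). The transcript lengths are those of the longest annotated transcript, and the forms present in oocytes were not measured.

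**Figure D2:**
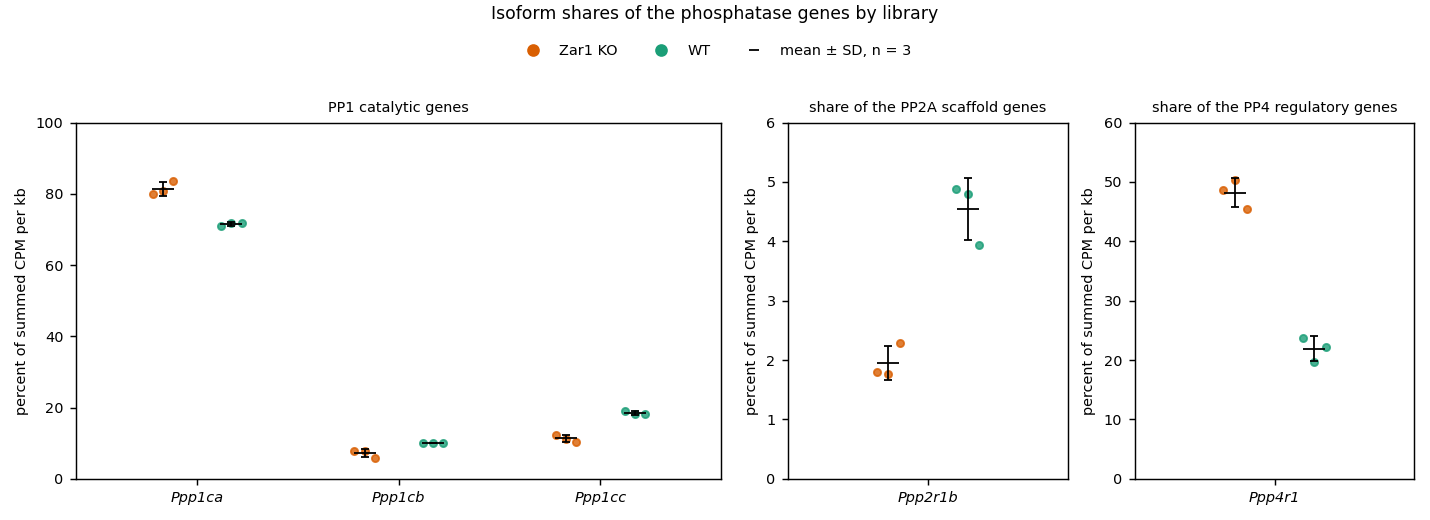
Share of each PP1 catalytic gene, of Ppp2r1b among the PP2A scaffold genes and of Ppp4r1 among the PP4 regulatory genes, in percent of summed CPM per kilobase; points are libraries (orange KO, green WT) and bars the mean and SD of 3 libraries. The Ppp1ca share is 81.5% in KO and 71.5% in WT, and the Ppp4r1 share 48.2% in KO and 21.9% in WT.

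Of 10 genes for PP1 inhibitors, small proteins that block or hold the catalytic subunit, 5 were tested and 2 rose. Ppp1r11, inhibitor 3, averaged 18.9 ± 1.44 CPM in KO and 14.4 ± 1.15 CPM in WT (log2 fold change 0.39 ± 0.13, adjusted p = 0.0457). Ppp1r14b, a relative of the smooth muscle inhibitor CPI-17, averaged 20.1 ± 2.17 CPM in KO and 15.2 ± 1.34 CPM in WT (0.40 ± 0.14, adjusted p = 0.0488). The KO and WT libraries did not overlap for either gene. Both calls were at the edge of the threshold. Ppp1r11 lost it without KO replicate 1 (adjusted p = 0.126), KO replicate 2 (0.0599), WT replicate 1 (0.0935), WT replicate 2 (0.0925) or WT replicate 3 (0.173) and after the correction (0.0984). Ppp1r14b lost it without KO replicate 2 (0.0765), KO replicate 3 (0.108), WT replicate 1 (0.171), WT replicate 2 (0.0845) or WT replicate 3 (0.114), and the correction turned its fold change to -0.21 (0.306), its transcript having the highest GC content of the tested phosphatase genes (65.8%). Ppp1r2, inhibitor 2, was low and not called (2.06 ± 0.924 CPM in KO, 2.56 ± 0.231 CPM in WT, adjusted p = 0.511). Ppp1r14c and Ppp1r14d were at 2.49 and 3.25 CPM in KO and 2.85 and 3.71 CPM in WT, with overlapping groups.

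Among the nuclear regulators, Ppp1r7 encodes SDS22, a leucine-rich repeat partner of PP1. It had 154, 147 and 139 CPM in the KO libraries, against 124.5, 119 and 111 CPM in the WT libraries, with all KO libraries above all WT libraries. Ppp1r7 was called higher (0.31 ± 0.08, adjusted p = 0.0153), and the call was lost without WT replicate 2 (0.0535) or WT replicate 3 (0.0839). The gene shares 225 exonic bases with Pask on the other strand, which had 1431 counts over all libraries. Ppp1r8 encodes NIPP1, a nuclear inhibitor bound to splicing factors. It had 14.3, 11.8 and 11.7 CPM in KO and 6.78, 6.50 and 9.83 CPM in WT, where WT replicate 3 came closest to the KO range without reaching it. Ppp1r8 rose (0.71 ± 0.20, adjusted p = 0.0232) but lost the call without KO replicate 1 (0.0708), WT replicate 1 (0.0894) or WT replicate 2 (0.0881). Ppp1r10 (PNUTS), the nuclear subunit of a PP1 complex that acts on RNA polymerase II, had overlapping groups, 196 ± 18.6 CPM in KO and 197 ± 6.42 CPM in WT (-0.01 ± 0.08, adjusted p = 0.959).

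Per kilobase of transcript, the highest level of any phosphatase gene in KO was that of Ppp1r13b, at 196 CPM per kilobase, against 120.1 in WT, where Ppp2r1a was higher (138). Ppp1r13b encodes ASPP1, a partner of p53 that also binds PP1 (chromosome 12). It had 894, 925 and 763 CPM in KO replicates 1, 2 and 3, against 495, 572 and 515 CPM in WT replicates 1, 2 and 3. Every KO library was far above the WT range, and KO replicate 3 was the lowest of the KO libraries. It rose 1.63-fold (log2 fold change 0.71 ± 0.09, adjusted p = 0.000558). This 1 gene made up 44.8 ± 4.30% of the summed CPM of PP1 genes in KO and 34.7 ± 1.56% in WT. Its relative Ppp1r13l, iASPP, was low, with 3.00 ± 0.322 CPM in KO and 2.22 ± 0.223 CPM in WT (0.43 ± 0.24, adjusted p = 0.191). The KO and WT libraries did not overlap for Ppp1r13l either.

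The paralogs neurabin and spinophilin, which bind PP1 to the actin cytoskeleton, moved apart. Ppp1r9b, spinophilin, had 50.2, 53.5 and 83.4 CPM in the KO libraries, against 30.9, 39.6 and 33.4 CPM in the WT libraries. All KO libraries were above the WT range and KO replicate 3 was the highest by a wide margin. Its log2 fold change was 0.85 ± 0.19 (adjusted p = 0.00921), and 0.58 without KO replicate 3 (adjusted p = 0.00775). Ppp1r9a, neurabin, had 10.5, 11.7 and 10.5 CPM in KO and 16.5, 16.8 and 15.7 CPM in WT, with no overlap, and fell by 0.58 on the log2 scale (SE 0.13, adjusted p = 0.00827). Both held their call without any single library. After the GC and length correction the values were 0.50 (adjusted p = 0.0528) for Ppp1r9b and -0.34 (0.0750) for Ppp1r9a.

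The myosin phosphatase targeting subunits hold PP1 beta at myosin. Ppp1r12a, MYPT1 (chromosome 10), had 234, 230.0 and 245 CPM in the KO libraries, against 274, 277 and 279 CPM in the WT libraries. The WT libraries lay close together and above all KO libraries, and Ppp1r12a fell (-0.23 ± 0.06, adjusted p = 0.0251). It lost the call without KO replicate 1 (0.0849), KO replicate 2 (0.0781), WT replicate 1 (0.0619), WT replicate 2 (0.0722) or WT replicate 3 (0.0886) and after the correction, which turned it to 0.05 (0.558). Ppp1r12b had overlapping groups (6.95 ± 2.09 CPM in KO, 7.30 ± 0.909 CPM in WT). Ppp1r12c had 47, 71 and 25 counts in KO and 28, 16 and 7 in WT, and missed the threshold (1.51 ± 0.53, adjusted p = 0.0559).

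Of the other PP1 interactors, 6 of 9 were tested and 1 rose. Ppp1r21, named in human cells as part of a complex on early endosomes, had 34.6, 32.7 and 26.1 CPM in KO and 22.7, 18.6 and 19.6 CPM in WT. The groups did not overlap and Ppp1r21 rose by 0.62 ± 0.14 (adjusted p = 0.00955). Ppp1r37, a leucine-rich repeat protein, was also higher in all KO libraries, with 72.6 ± 19.4 CPM in KO and 53.1 ± 3.30 CPM in WT, but missed the threshold (0.45 ± 0.17, adjusted p = 0.0658). Its log2 fold change was 0.21 without KO replicate 3 (adjusted p = 0.107). Ppp1r35, needed for centriole elongation, had overlapping groups at 4.14 ± 0.114 CPM in KO and 4.01 ± 0.528 CPM in WT. Ppp1r26, Ppp1r27 and Ppp1r42 were below 1 CPM on average in both groups and not called.

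**Figure D3:**
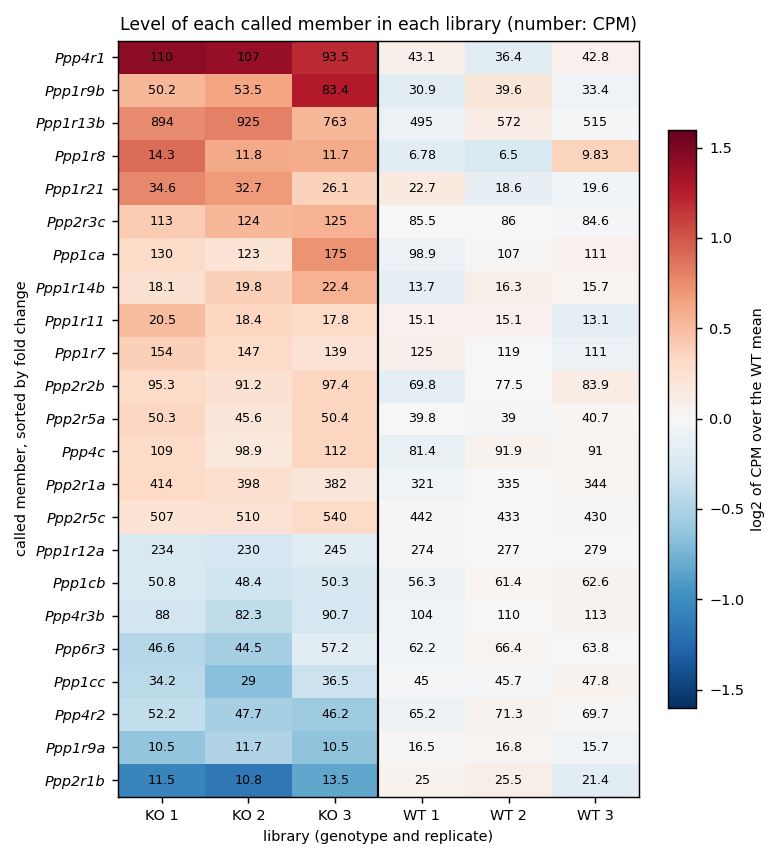
CPM of the 23 called genes in each library, KO on the left and WT on the right of the line; colour is log2 of the level over the WT mean and rows are sorted by fold change. Ppp4r1 runs from 93.5 to 109.7 CPM in KO and from 36.4 to 43.1 CPM in WT, and KO replicate 3 is the darkest of the KO libraries for Ppp1r9b.

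The PP2A catalytic genes were not called. Ppp2ca, the alpha form (chromosome 11), had 118, 123 and 94.3 CPM in KO replicates 1, 2 and 3, against 109, 105 and 104 CPM in WT replicates 1, 2 and 3. KO replicate 3 was below and the other KO libraries above all WT libraries (0.08 ± 0.11, adjusted p = 0.602). Ppp2cb, the beta form, was rare, with 63, 37 and 110 counts in KO and 60, 15 and 43 in WT. Its libraries overlapped widely (0.84 ± 0.53, adjusted p = 0.262). Per kilobase Ppp2cb made up 7.995 ± 4.91% of the catalytic pair in KO and 4.64 ± 2.36% in WT (exact two-sided permutation p = 0.4).

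The PP2A scaffold genes went in opposite directions. Ppp2r1a, the alpha scaffold (chromosome 17), had 414, 398 and 382 CPM in KO replicates 1, 2 and 3, against 321, 335 and 344 CPM in WT replicates 1, 2 and 3. Each KO library was above each WT library (0.26 ± 0.07, adjusted p = 0.0173). Ppp2r1b, the beta scaffold (chromosome 9), had 11.5, 10.8 and 13.5 CPM in KO, against 25.0, 25.5 and 21.4 CPM in WT. Every KO library was below every WT library, with means that differed 2.01-fold (log2 fold change -1.01 ± 0.14, adjusted p = 0.000838). Ppp2r1b was thus 1.95 ± 0.290% of the scaffold level per kilobase in KO and 4.54 ± 0.520% in WT (exact two-sided permutation p = 0.1). The Ppp2r1b call held without any single library, with log2 fold changes between -1.10 and -0.93. That of Ppp2r1a was lost without KO replicate 1 (0.0501), WT replicate 1 (0.0783), WT replicate 2 (0.0606) or WT replicate 3 (0.0550) and after the correction (0.13, adjusted p = 0.177). Ppp2r1b shares 1429 exonic bases with Sik2 on the other strand, which had 841 counts over all libraries, and how counting treated strand is not given.

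The B55 subunits direct PP2A to substrates of CDK1 and are held back at mitotic entry by ENSA and ARPP19. Ppp2r2b, B55 beta, averaged 94.6 ± 3.15 CPM in KO and 77.0 ± 7.06 CPM in WT, without overlap, and rose (0.30 ± 0.09, adjusted p = 0.0311). The call was lost without KO replicate 1 (0.0658), KO replicate 3 (0.0523), WT replicate 1 (0.128) or WT replicate 2 (0.0910). Ppp2r2a, B55 alpha, averaged 129 ± 7.04 CPM in KO and 129 ± 13.2 CPM in WT (0.01 ± 0.09, adjusted p = 0.972). Ppp2r2d, B55 delta, averaged 147 ± 11.9 CPM in KO and 128 ± 3.01 CPM in WT, higher in each KO library but not called (0.20 ± 0.08, adjusted p = 0.0904). Correcting for GC content and length (0.35, adjusted p = 0.0107), upper-quartile scaling (0.25, 0.0402) and voom with quality weights (0.23, 0.0358) each called it. Ppp2r2d shares 195 exonic bases with Mapk1ip1 on the other strand, which had 24014 counts over all libraries. Per kilobase the 3 tested B55 genes were close to each other, between 32.2 and 41.7 CPM in KO and between 32.1 and 33.9 CPM in WT.

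In the B72 family, which includes calcium-binding proteins, Ppp2r3c rose. It had 113, 124 and 125.5 CPM in KO replicates 1, 2 and 3, against 85.5, 86.0 and 84.6 CPM in WT replicates 1, 2 and 3. The WT libraries lay close together and every KO library was above them (0.50 ± 0.08, adjusted p = 0.00128). After the GC and length correction its fold change was larger, 0.73 (adjusted p = 0.000210). It shares 243 exonic bases with 1110008L16Rik on the other strand, which had 4626 counts over all libraries, against 13151 in KO and 9218 in WT for Ppp2r3c. Ppp2r3d and Ppp2r3a were not called, with fold changes of 0.41 ± 0.17 (adjusted p = 0.104) and 1.05 ± 0.46 (0.111). B72 genes took 10.2 ± 0.708% of the summed level of PP2A regulatory genes per kilobase in KO and 8.52 ± 0.226% in WT (exact two-sided permutation p = 0.1).

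The B56 subunits carry PP2A to the centromere with shugoshin and BUBR1. Ppp2r5c, B56 gamma (chromosome 12), was the highest PP2A gene per kilobase after Ppp2r1a. It had 507, 510.3 and 540.0 CPM in the KO libraries, against 442, 433 and 430.1 CPM in the WT libraries, and no library of the groups overlapped. Ppp2r5c rose (0.25 ± 0.06, adjusted p = 0.0133) but was not called without WT replicate 2 (0.0530) or WT replicate 3 (0.0722). Ppp2r5a, B56 alpha, had 50.3, 45.6 and 50.4 CPM in KO and 39.8, 39.0 and 40.7 CPM in WT, again without overlap. It rose (0.29 ± 0.09, adjusted p = 0.0310), though the call was lost without KO replicate 1 (0.0863), KO replicate 3 (0.0544), WT replicate 1 (0.0973), WT replicate 2 (0.110) or WT replicate 3 (0.0943). Ppp2r5d and Ppp2r5b missed the threshold (0.35 ± 0.13, adjusted p = 0.0708, and 0.96 ± 0.35, adjusted p = 0.0651). Without KO replicate 2 the Ppp2r5b value was 0.48 (adjusted p = 0.223). Ppp2r5d shares 121 exonic bases with Mea1 on the other strand, which had 23832 counts over all libraries. Ppp2r5e, B56 epsilon, was at 87.9 ± 14.3 CPM in KO and 91.5 ± 0.742 CPM in WT (-0.06 ± 0.12, adjusted p = 0.736). Ppp2r5c made up 71.7 ± 2.98% of B56 mRNA per kilobase in KO and 70.8 ± 0.839% in WT (exact permutation p = 0.8).

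**Figure D4:**
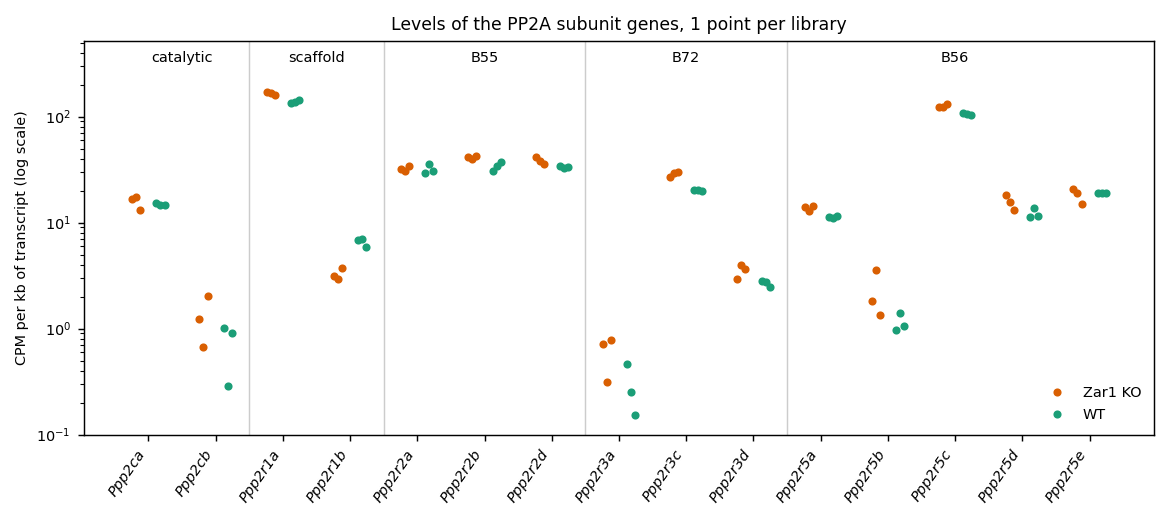
Level of each tested PP2A gene in CPM per kilobase of transcript on a log axis, 1 point per library, orange for KO and green for WT, by kind of subunit. Ppp2r1a and Ppp2r5c are the highest, at 165 and 126 CPM per kilobase in KO and 138 and 106 in WT, and the Ppp2r1b points of KO lie below those of WT.

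No calcineurin gene of the 4 tested was called. The catalytic gene Ppp3cb, calcineurin beta, had 23.1, 22.8 and 19.3 CPM in KO and 19.5, 19.2 and 18.0 CPM in WT, with KO replicate 3 inside the WT range (0.20 ± 0.12, adjusted p = 0.245). The correction for GC content and length brought it past the threshold (0.43, adjusted p = 0.0253). Ppp3cc, calcineurin gamma, had 34.3, 32.3 and 33.6 CPM in KO, slightly above the 28.4, 30.5 and 32.0 CPM of WT (0.14 ± 0.10, adjusted p = 0.307). The calcium-binding subunit Ppp3r1 averaged 116 ± 10.2 CPM in KO and 112 ± 2.34 CPM in WT, with overlap, and was called after the correction (0.25, adjusted p = 0.0465). Its paralog Ppp3r2 was below 1 CPM on average in both groups. Ppp3r1 shares 462 exonic bases with Wdr92 on the same strand, which had 66153 counts over all libraries. Ppp3r1 itself had 12590 counts in KO and 12134 in WT.

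PP4 held the largest rise of all called phosphatase genes. Ppp4r1, a regulatory subunit built of HEAT repeats (chromosome 17), had 109.7, 107 and 93.5 CPM in KO replicates 1, 2 and 3, against 43.1, 36.4 and 42.8 CPM in WT replicates 1, 2 and 3. The lowest KO library was above the highest WT library by a wide margin. Ppp4r1 rose 2.54-fold (log2 fold change 1.34 ± 0.10, adjusted p = 4.5e-05), between 1.26 and 1.41 when any library was left out. Its share of the PP4 regulatory genes per kilobase was 48.2 ± 2.47% in KO and 21.9 ± 2.10% in WT (exact two-sided permutation p = 0.1). The pseudogene Ppp4r1l-ps had 169 counts in KO and 111 in WT, against 11240 and 4407 for Ppp4r1.

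In the other PP4 complex 2 of 3 regulatory genes were called lower. Ppp4r2, which joins PP4 to its R3 subunits, had 52.2, 47.7 and 46.2 CPM in KO and 65.2, 71.3 and 69.7 CPM in WT, without overlap (-0.50 ± 0.09, adjusted p = 0.00284). Ppp4r3b, the R3 beta subunit, had 88.0, 82.3 and 90.7 CPM in KO and 104, 109.8 and 113 CPM in WT, without overlap (-0.33 ± 0.08, adjusted p = 0.0124). Ppp4r3a was lower in each KO library and not called (-0.34 ± 0.14, adjusted p = 0.104). Ppp4r3b lost its call without WT replicate 3 (0.0601). After the GC and length correction Ppp4r2 was at -0.23 (adjusted p = 0.0705) and Ppp4r3b at -0.04 (0.705). The catalytic gene Ppp4c had 109, 98.9 and 112 CPM in KO and 81.4, 91.9 and 91.0 CPM in WT, with all KO libraries above. It rose by 0.27 ± 0.09 (adjusted p = 0.0371). That call was lost without KO replicate 1 (0.0868), KO replicate 3 (0.0656), WT replicate 1 (0.150), WT replicate 2 (0.0726) or WT replicate 3 (0.0912) and after the correction (0.122).

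Neither catalytic gene of PP5 and PP6 was called. Ppp5c, a phosphatase that binds HSP90, had 9.48, 6.25 and 9.33 CPM in KO and 8.15, 10.1 and 8.23 CPM in WT, with overlap (adjusted p = 0.799). Ppp6c, which in mouse oocytes limits Aurora A at the spindle, had 5.78, 9.44 and 6.81 CPM in KO and 7.80, 7.92 and 7.30 CPM in WT, the KO libraries lying on both sides of the WT range (adjusted p = 0.847). Of its SAPS-domain regulators, Ppp6r3 had 46.6, 44.5 and 57.2 CPM in KO and 62.2, 66.4 and 63.8 CPM in WT, and fell (-0.38 ± 0.11, adjusted p = 0.0272). KO replicate 3 was the closest to WT. The Ppp6r3 call was lost without KO replicate 1 (0.0996), KO replicate 2 (0.0917), WT replicate 1 (0.0596), WT replicate 2 (0.0875) or WT replicate 3 (0.0768), with upper-quartile scaling (0.0511) and after the correction (-0.12, adjusted p = 0.419). Ppp6r1 was lower in each KO library without a call (-0.39 ± 0.16, adjusted p = 0.0938), and Ppp6r2 overlapped.

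Summed over all 65 genes the phosphatase mRNA level was 4264 ± 69.3 CPM in KO and 3596 ± 73.0 CPM in WT. PP1 genes summed to 1919 ± 16.6 CPM in KO and 1518 ± 46.0 CPM in WT, and PP2A genes to 1738 ± 31.5 CPM in KO and 1499 ± 16.6 CPM in WT. The groups did not overlap in any of these sums (exact two-sided permutation p = 0.1 for each). PP3 to PP6 genes summed to 607 ± 25.3 CPM in KO and 579 ± 15.7 CPM in WT (exact permutation p = 0.2). Most of the PP1 difference came from 1 gene: without Ppp1r13b, a sum added after its level had been seen, PP1 was at 1059 ± 78.3 CPM in KO and 990.4 ± 8.07 CPM in WT (exact permutation p = 0.3). Shares among the 10 catalytic genes, which do not include Ppp3ca, were taken per kilobase of the longest annotated transcript and depend on that length. PP1 took 55.1 ± 3.84% in KO and 54.7 ± 0.658% in WT, and PP4 25.2 ± 1.33% in KO and 24.2 ± 0.638% in WT. The shares of PP2A, PP3, PP5 and PP6 overlapped too, with exact permutation p between 0.2 and 0.9.

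The phosphatase genes that rose and fell differed in transcript composition, as genes did in the whole table. The median GC content of the longest transcript was 51.4% in the 15 that rose, 41.8% in the 8 that fell and 48.8% in those not called. Among all tested protein-coding genes it was 51.7% in those that rose and 46.5% in those that fell. The median 3' UTR was 906 bases in the phosphatase genes that rose and 2468.5 bases in those that fell, against 879.5 and 1741.5 bases in protein-coding genes. Across the 54 genes the fold change went with GC content at a Spearman rho of 0.41, and with 3' UTR length at -0.41. The values were 0.22 and -0.20 across all tested protein-coding genes. These correlations are across genes measured in the same 6 libraries and are given as a description. Under the correction 11 of the 23 calls were kept, among them Ppp1cc, Ppp2r1b, Ppp1r13b, Ppp2r3c and Ppp4r1, 12 were lost and 5 genes gained a call (Ppp2r2d, Ppp2r3d, Ppp3cb, Ppp3r1 and Ppp6r1). The part of transcript composition in the calls was not tested beyond this correction.

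**Figure D5:**
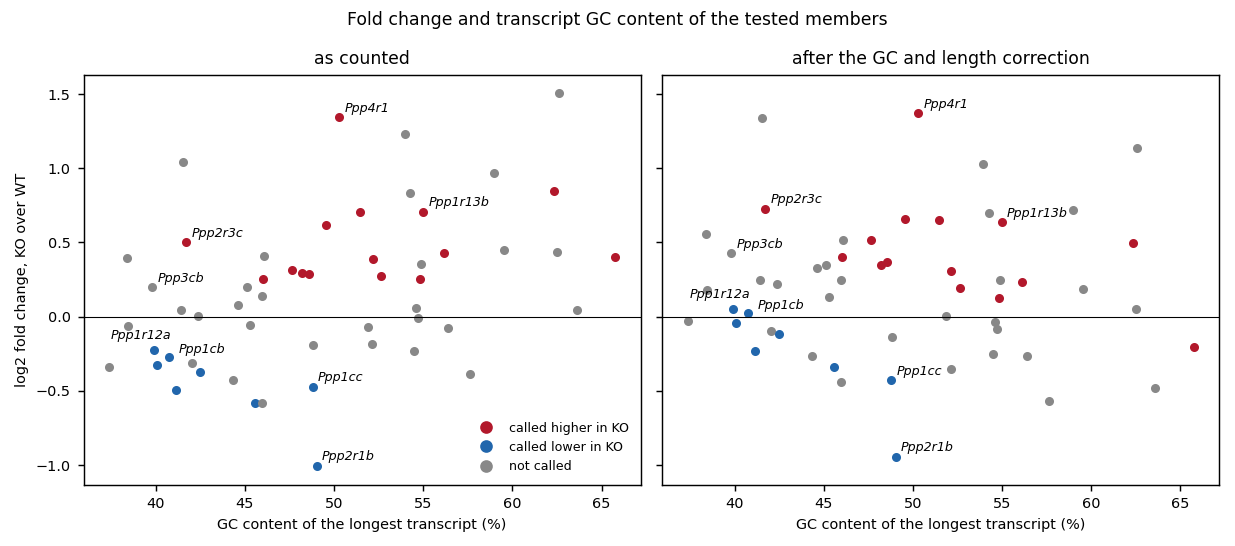
Log2 fold change of KO over WT against GC content of the longest annotated transcript (%) for the 54 tested genes, as counted (left) and after the correction for GC content and length (right); colours give the call as counted in both panels. On the right Ppp1cb and Ppp1r12a move to 0.03 and 0.05, while Ppp4r1, Ppp2r1b and Ppp1cc stay at 1.37, -0.94 and -0.43.

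Proteins that switch or assemble PP2A were described from lists chosen with earlier results of these data known. Of 9 genes of a list for the brake on PP2A at mitotic entry, 2 rose and 1 fell (median 0.09, against 0.00745). That is 33.3% called, against 33.4% of all tested genes. Ensa, an inhibitor of PP2A-B55, fell to 25.4 ± 4.57 CPM in KO, against 41.9 ± 3.11 CPM in WT (-0.72 ± 0.14, adjusted p = 0.00460). Its paralog Arpp19 was not called, at 197 ± 26.9 CPM in KO and 182 ± 4.45 CPM in WT (0.11 ± 0.10, adjusted p = 0.422). Mastl, the Greatwall kinase that activates both, rose (0.24 ± 0.07, adjusted p = 0.0319), a call lost without KO replicate 1 (0.0887), WT replicate 1 (0.132), WT replicate 2 (0.0768) or WT replicate 3 (0.0956). Set, an oncoprotein that inhibits PP2A, rose to 91.6 ± 14.99 CPM in KO, against 62.5 ± 3.42 CPM in WT (0.55 ± 0.12, adjusted p = 0.00729). After the GC and length correction Arpp19 (0.35, adjusted p = 0.0282), Cip2a (0.33, 0.0161) and Bod1l (0.31, 0.0399) were called higher as well. Under it Mastl (0.53, 0.000833), Set (0.67, 0.00341) and Ensa (-0.60, 0.0111) kept their calls, and Bod1, Anp32a and Anp32e were not called. Arpp19 was also called without KO replicate 3 (0.22, adjusted p = 0.0354).

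Both enzymes of PP2A carboxymethylation rose. Lcmt1, the methyltransferase, was at 46.2 ± 2.23 CPM in KO and 30.9 ± 1.11 CPM in WT (0.58 ± 0.09, adjusted p = 0.00159), and Ppme1, the methylesterase, at 142 ± 3.51 CPM in KO and 101 ± 7.86 CPM in WT (0.48 ± 0.08, adjusted p = 0.00209). Tiprl, which binds free catalytic subunits, fell (-0.86 ± 0.18, adjusted p = 0.00661). Counting these 3, the assembly list of 5 genes had 2 higher and 1 lower (median -0.17), which is 40% and 20%. Over all tested genes the shares were 14.9% and 18.5%. The striatin complex, a PP2A assembly with its own B subunits, had 3 of 8 genes higher and 2 lower (median 0.14), 37.5% and 25.0%, against 14.9% and 18.5% of all tested genes. Among them Strn4 rose (0.55 ± 0.12, adjusted p = 0.00796) and Sike1 fell (-0.99 ± 0.25, 0.0142). The call of Sike1 was lost without WT replicate 1 (0.0565).

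All 3 ankyrin subunits of PP6, which join its SAPS regulators, fell, where 18.5% of all tested genes and 20.4% of the protein-coding ones did. Ankrd28 was at 36.8 ± 2.15 CPM in KO and 57.2 ± 2.57 CPM in WT (-0.64 ± 0.09, adjusted p = 0.000895). Ankrd44 was at 285 ± 24.6 CPM in KO and 409 ± 18.6 CPM in WT (-0.52 ± 0.08, adjusted p = 0.00152). Ankrd52 was at 1.85 ± 0.193 CPM in KO and 4.08 ± 0.502 CPM in WT (-1.14 ± 0.23, adjusted p = 0.00576). The SAPS regulators Ppp6r1 and Ppp6r2 and the catalytic gene Ppp6c were not called.

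Among 9 genes that dock PP1 or PP2A at centromeres and the spindle, 1 rose and 1 fell (median 0.13). That was 11.1% in each direction, against 14.9% and 18.5% of all tested genes. Mki67, which holds PP1 on chromosomes, was at 149.8 ± 28.8 CPM in KO and 82.2 ± 5.20 CPM in WT (0.87 ± 0.14, adjusted p = 0.00162). Kif18a, a kinesin that binds PP1, fell (-0.38 ± 0.12, adjusted p = 0.0346), a call lost without WT replicate 1 (0.105), WT replicate 2 (0.0653) or WT replicate 3 (0.0939) and after the correction (-0.07, adjusted p = 0.704). Of 12 tested genes of a list of other PP1 partners 2 rose and 2 fell (median 0.00). Each direction held 16.7%, against the same 14.9% and 18.5%. Sfi1, a centrosomal protein with near-identical copies in the mouse genome, whose value is uncertain for that reason, was at 51.9 ± 9.05 CPM in KO and 21.7 ± 2.80 CPM in WT (1.26 ± 0.15, adjusted p = 0.000354). Zfyve9 rose (0.41 ± 0.09, adjusted p = 0.00793) and Phactr2 fell (-1.40 ± 0.40, 0.0263). Phactr2 was lost without KO replicate 1 (0.0756), KO replicate 3 (0.0606), WT replicate 1 (0.0866) or WT replicate 3 (0.0751) and after the correction (0.0605).

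Of 10 tested genes in a list of calcineurin regulators and targets none rose and 2 fell (median -0.03). Over all tested genes 14.9% rose and 18.5% fell. The called genes, 20% of the 10, were Nfatc1 and Rcan3. Nfatc1, a transcription factor that calcineurin activates, was at 4.26 ± 0.652 CPM in KO and 12.5 ± 4.45 CPM in WT (-1.55 ± 0.27, adjusted p = 0.00268). Rcan3, a calcineurin inhibitor, fell (-0.30 ± 0.08, adjusted p = 0.0172), a call lost without KO replicate 2 (0.0505), WT replicate 1 (0.0565) or WT replicate 2 (0.0601). The metal-dependent PP2C phosphatases, a separate family of serine/threonine phosphatases, had 3 of 16 tested genes higher and 5 lower (median -0.23), that is 18.8% and 31.2%, against 14.9% and 18.5% of all tested genes. The 3 called genes with the smallest adjusted p all fell. Pptc7, a mitochondrial phosphatase, was at 20.8 ± 2.73 CPM in KO and 53.2 ± 2.14 CPM in WT (-1.35 ± 0.12, adjusted p = 7.55e-05). Phlpp2, which acts on AKT, and Ppm1l were 12.8 ± 2.54 and 12.6 ± 0.706 CPM in KO and 35.0 ± 0.151 and 31.4 ± 5.53 CPM in WT (-1.45 ± 0.15, adjusted p = 0.000197, and -1.32 ± 0.15, adjusted p = 0.000309). The largest fall of the list, named after its value was seen, was that of Pdp2, a pyruvate dehydrogenase phosphatase, with 26, 1 and 2 counts in KO and 183, 113 and 99 in WT (-3.72 ± 0.82, adjusted p = 0.00847).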

How the data were processed

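Each library has a table of raw gene counts, deposited without normalization. HTSeq 0.13.5, STAR 2.7.8a, cutadapt 2.8 and bcl2fastq 2.20.0.422 and build mm39 are named in the submitters' processing notes. The sources used here name no annotation release or strand setting, so counts of overlapping genes (25 of the 65) and near-identical copies are uncertain. Per the labels' protocol, libraries were made from 10 oocytes each. Summary lines of the counting, which held 4.84% to 5.70% of reads outside genes, 4.21% to 4.42% in more than 1 gene and 13.9% to 15.0% with more than 1 alignment, stayed out of library sizes.

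The test was edgeR 4.0.16's quasi-likelihood test under R 4.3.3 (TMM, filterByExpr, glmQLFit, glmQLFTest, genotype only, two-sided, adjusted p of 0.05 over 16473 genes, common biological coefficient of variation 0.212). The steps had first been run on simulated data. They recovered 2.99% of 67 changes of 1.5-fold, 53.7% of 67 of 2-fold and 98.5% of 66 of 4-fold. Genes that were not called may therefore still differ. The simulated data held far fewer changed genes than the 5499 called here. Standard errors are the absolute log2 fold change over the square root of F. Single values were compared with exact permutation tests (scipy 1.17.1). Precision is limited by 3 pools a group and, for rare genes, by counts. Members, partner lists, tests and named genes were chosen with earlier results of these data known. Genes given by library are the catalytic and scaffold genes, the 10 genes called higher with the smallest adjusted p and all 8 called lower; up to 3 called genes are named per partner list. The alternatives, 21 in all, were other scaling (RLE, upper quartile, none), filters, DESeq2 1.42.0, voom (limma 3.58.1), plain or with quality weights, a replicate block, a GC and length correction (lowess trends of each library as offsets, 99.7% of tested genes covered), stricter thresholds, and dropping the mitochondrial genome or 1 library at a time. Transcript lengths, GC content and 3' UTRs came from GENCODE M21, which is built on GRCm38, so coordinates are not printed. Protein sequences and their docking motifs were not analysed here. No 2 libraries of a group agreed within sampling noise (chi-square over degrees of freedom from 12.8 to 39.9).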

Additional observations from a re-analysis of the deposited data

How the results depend on the processing

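Of 168 recomputed counts of called genes 114 stayed within 1.5 times the reported one. With upper-quartile factors 5 phosphatase genes were lower (2 of PP1), and the summed level stood at a log2 ratio of 0.30 in place of 0.25. Library sizes alone left 1 gene of PP3 to PP6 higher. Without a filter on low counts there were 2 PP1 genes lower and 1 of PP3 to PP6 higher. Voom with quality weights called 8 PP2A genes higher. The GC and length correction called 3 genes lower, 2 of them as reported, 4 PP1 genes higher and 1 lower, and 1 of PP3 to PP6 lower, Ppp6r1, while the reported falls of PP3 to PP6 lost their call. Combined with the replicate block it called 2 lower, 5 PP1 genes higher and 1 lower, and 0 of PP3 to PP6 lower. Its fold changes changed sign for Ppp1cb (0.027, and 0.028 with the block), Ppp1r12a (0.054 and 0.053) and Ppp1r14b (-0.21 and -0.21). The cause was not tested.

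An adjusted p of 0.01 left 5 genes higher and 4 lower, with 3 and 2 in PP1, 1 higher in PP2A, and 1 and 1 in PP3 to PP6. A test against a 1.5-fold change left 1 and 1, with 0 and 0 in PP1, 0 higher in PP2A, and 1 and 0 in PP3 to PP6. When each library was left out, counts ranged from 5 to 15 higher and 4 to 8 lower. They ran from 3 to 8 and 2 to 4 in PP1, from 1 to 6 higher in PP2A, and from 1 to 2 and 1 to 3 in PP3 to PP6. The summed log2 ratio stayed between 0.23 and 0.26.

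Same-numbered libraries did not deviate together (correlations -0.01, -0.04 and -0.03). With 3 libraries a group these correlations cannot show whether same-numbered pools were collected or prepared together. The replicate block gave 14 genes higher and 6 lower, of which 11 and 6 were among those reported, with 2 PP1 genes lower and 1 of PP3 to PP6 higher. For single genes 1071 values were recomputed, of which 885 kept their call or their lack of one. Some of the 885 changed sign in genes not called either way. Ppp6c went from -0.06 as reported to 0.18 after the GC and length correction. Depth limits Ppp2cb, Ppp1r12c and other genes of few counts.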
